A study of Mus musculus with 4 samples.

Results

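The genes described here encode 10 proteins of endothelial junctions and the endothelial cell surface: Cdh5, Pecam1, Cldn5, Esam, Eng, Tek, Tie1, Cd93, Cd34 and Podxl. The peaks of all 4 ATAC-seq libraries were merged into 40910 union regions wherever they overlapped, and each region was given to the protein-coding gene with the nearest transcript start if that start lay within 100 kb. Of the 35041 regions assigned in this way to 15050 genes, 36 belonged to 9 of the 10 genes. Tie1 received none.

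ATAC-seq, a readout of open chromatin by transposase insertion, was performed on wild-type ES-E14TG2a cells, a line of mouse embryonic stem cells (mESCs), during differentiation toward cardiogenic mesoderm. The d4 cultures had been reaggregated in serum-free medium with Activin A, BMP4 and VEGF, and the d2 cultures were collected before these factors were added. There were 2 libraries from d4 and 2 from d2, each pair from independent differentiation experiments. The comparison asks where chromatin accessibility changes as the endothelial programme begins. The cultures were whole and unsorted, so a change in the share of cells of a type and a change in accessibility per cell cannot be told apart.

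Endothelial cells (ECs) are joined by adherens junctions built on VE-cadherin and by tight junctions built on claudins, with PECAM1 and ESAM at the same borders. Angiopoietins signal through the receptor TEK, with TIE1 as its partner, and endoglin assists receptors of the TGF-beta family. CD34 and podocalyxin are heavily glycosylated sialomucins of the luminal surface, and several of these proteins are also found outside endothelium, such as CD34 on haematopoietic progenitors and PECAM1 on mouse embryonic stem cells.

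The 36 regions did not move in one direction. A region is called gained here if a peak was called in each d4 library but no d2 library, lost if the opposite held, and shared if every library had one. Of the 36 regions, 8 (22.2%) were gained, against 8.48% of all assigned regions. They lay at Podxl (4), Cd34 (2) and Cd93 (2), and none lay at the 4 junction genes or at Eng, Tek or Tie1. Lost regions numbered 5 (13.9%, against 13.2% of all), with 2 at Cldn5, 2 at Podxl and 1 at Tek. Shared regions were few, at 2 of 36 (5.56%, against 31.9% of all), and both were assigned to Cd34. A peak in a single library was the most frequent state, found at 17 regions (47.2%, against 34.5% of all), 10 of them in a d4 library and 7 in a d2 library. The remaining 4 regions had peaks in 3 libraries (3 regions, each with both d2 libraries) or in 1 of each time point (1 region). Fewer member regions lay within 1000 bp of a protein-coding start (27.8%, against 44.6% of all), and these shares do not adjust for that. Among distal regions, more than 1000 bp from any transcript start, 7 of 25 member regions were gained, against 2518 of all 17213. These counts describe the regions and were not tested, because a peak list holds no counts for regions without a peak, and with 2 libraries against 2 the smallest exact two-sided p is 0.33. Each count depends on requiring a peak in both libraries of a time point. Leaving out d4 replicate 1 gave 11 gained regions of 29 (37.9%, against 15.3% of all). Leaving out d4 replicate 2 gave 15 of 33 (45.5%, against 16.9%). When d2 replicate 1 was left out, 9 of 33 regions were lost (27.3%, against 26.1% of all), and 8 of 32 when d2 replicate 2 was (25%, against 28.3%). The shared count was 4 without d4 replicate 2. How regions are assigned matters too. With transcript starts of any gene type, 2 of 20 member regions (10%) were gained, against 9.67% of all regions assigned that way, and within 50 kb it was 3 of 25 (12%), against 7.29%. With only the top 15000 peaks per library 3 of 17 (17.6%) were gained, against 9.41%, and at a −log10 q minimum of 10 it was 3 of 15 (20%), against 7.10%.

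**Figure D1:**
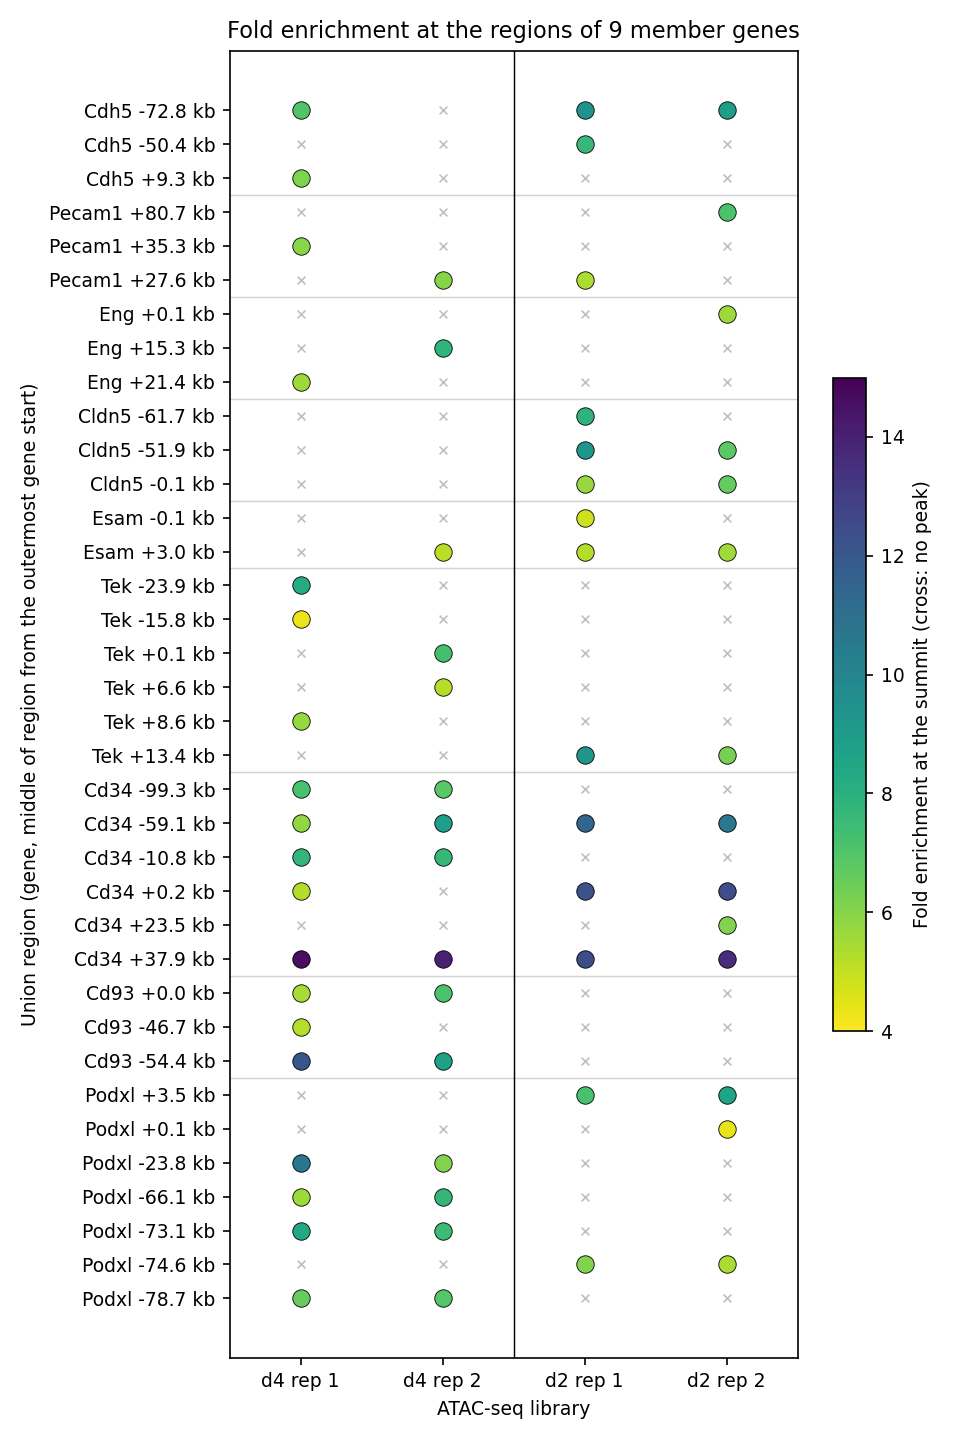
Fold enrichment at the summit (colour scale, ratio) of the strongest peak in each of the 36 union regions (rows, by gene and by the distance of the middle of the region from the outermost gene start) in the d4 and d2 libraries (columns), with a cross where no peak was called. The 8 rows filled only in both d4 columns lie at Cd34, Cd93 and Podxl, and the darkest row is the Cd34 region at +37.9 kb, between 12.5 and 14.6.

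Fold enrichment is the pileup of fragments or reads at the summit over the local background, each with 1 added, as the peak caller wrote it. Relative depth, solved from the peak lists, was 1 and 0.985 in the d4 libraries, against 0.752 and 0.640 in the d2 libraries (replicate 1 first in each pair), and the lists held 22511 and 21299 peaks at d4 and 26865 and 24544 at d2. A peak needed a pileup of at least 7 in the d4 libraries and of at least 6 in the d2 libraries, so a missing peak means a signal under the caller's threshold at that depth, not closed chromatin. In each library the peaks of the member genes had a lower median fold enrichment than those of all assigned regions. The median fold enrichment was 6.14 and 7.27 at d4 and 7.76 and 6.68 at d2, against 8.16, 8.16, 7.88 and 8.81 over all assigned regions. The member regions were also narrower, with a median width of 234 bp against 294 bp. The replicates shared fewer of these regions, above all at d4. Of the 24 member regions with a peak in either d4 library, 10 (41.7%) had one in both, against 66.0% of all regions, and of the 18 with a peak in either d2 library, 10 (55.6%) had one in both, against 64.6%.

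A promoter peak was found for 9 of 10 genes in at least 1 library, but seldom in both libraries of a time point. For Cdh5 and Pecam1 it lay only at an inner protein-coding start. From their outermost gene starts, the nearest region assigned to any gene lay 9215 bp (Cdh5) and 11879 bp (Pecam1) away. The paper treated the element around this Cdh5 peak as lying outside promoters. Within 1000 bp of any protein-coding start of the gene, 1 of 10 genes (Cd93) carried a peak in each d4 library, against 48.1% of the 21829 protein-coding genes. In both d2 libraries it was 3 of 10 (Cldn5, Esam and Cd34), against 54.9%. None of the 10 had a promoter peak in all 4 libraries, against 46.2%, and only Tie1 had none in any library, against 37.6%. Per library, the genes with a promoter peak numbered 4 and 3 of 10 at d4, against 3 and 5 of 10 at d2, while 51.5% and 51.3% of all protein-coding genes had one at d4, against 57.2% and 58.8% at d2. Of the 36 regions, 10 (27.8%) lay within 1000 bp of a protein-coding start, compared with 44.6% of all assigned regions.

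**Figure D2:**
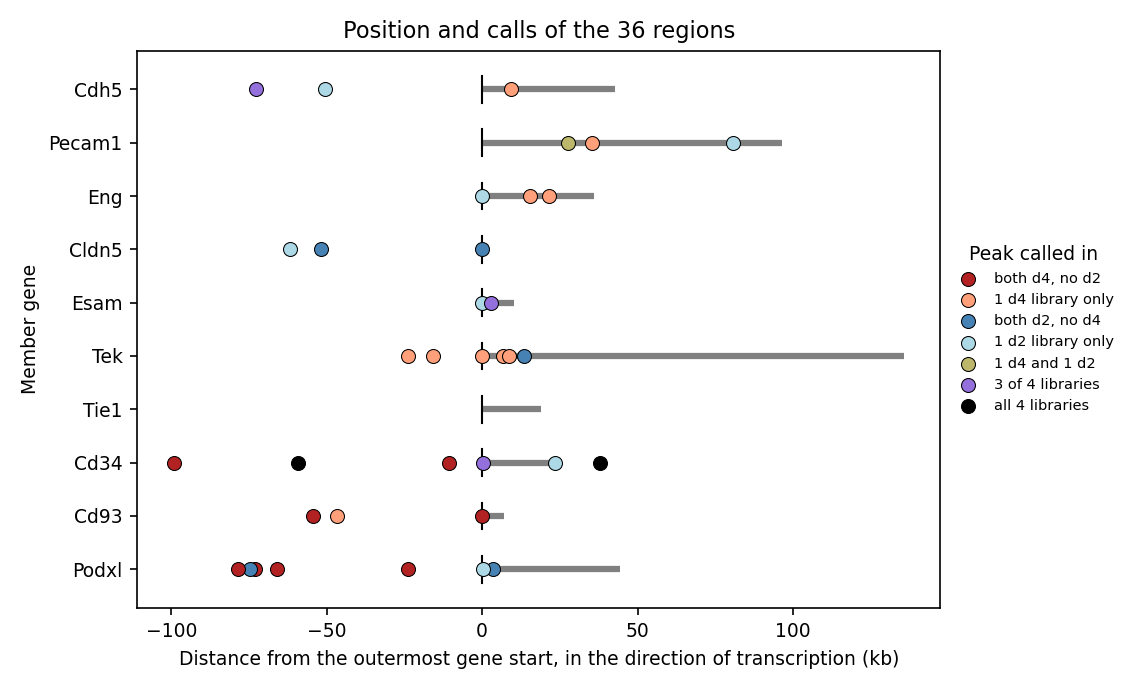
Position of the 36 regions (points) along each member gene (rows), as the distance in kb from the outermost gene start in the direction of transcription, with the gene body as a grey bar and colours for the libraries with a peak. Gained regions (red) lie upstream of Cd34 and Podxl and at and upstream of Cd93, Tek carries 5 regions called in 1 d4 library, and Tie1 has no region.

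Among the junction genes, Cdh5, which encodes VE-cadherin, the adhesion molecule of endothelial adherens junctions, had 3 regions. Positions are given on mm10 as the distance of the middle of a region from the outermost gene start, negative upstream. The region at +9.33 kb in intron 1 of 11 (chr8:104110840-104111063), 244 bp upstream of an inner protein-coding start, had a peak in d4 replicate 1 only, with a fold enrichment of 6.14 and a pileup of 12 (exact 95% Poisson interval 6.20 to 20.96, counting error only). The intergenic region at -72.8 kb (chr8:104028642-104028928) had 7.05 in d4 replicate 1 and no peak in d4 replicate 2, against 9.30 and 8.92 in the d2 libraries. The region at -50.4 kb (chr8:104051092-104051327) was called in d2 replicate 1 only, at 7.64. Thus no Cdh5 region was called in both d4 libraries, and the region nearest to the outermost start lay 9215 bp from it.

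The intronic Cdh5 region is shown because it holds a site to which the study directed dCas9, a Cas9 that binds without cutting, fused to the histone demethylase LSD1. The crRNA is the guide RNA part that matches the site. The first line gives the window of 100 bp to either side of its d4 summit (plus strand, GRCm38.p6, chr8:104110894-104111094), with capitals for the words of the 8 motifs searched, here 2 AP-1 words (TGANTCA) and 1 E-box word (CAGATG). The Cdh5 target sites on the plus strand follow, with the 3-base PAM in capitals.
Cdh5 intron 1 window: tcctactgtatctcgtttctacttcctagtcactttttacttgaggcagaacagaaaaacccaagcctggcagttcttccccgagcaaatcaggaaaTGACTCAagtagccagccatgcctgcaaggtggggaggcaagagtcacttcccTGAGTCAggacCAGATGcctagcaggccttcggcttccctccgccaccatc
Cdh5 crRNA1 site: gataactgcccttctacactGGG
Cdh5 crRNA2 site: agttcttccccgagcaaatcAGG
Cdh5 crRNA3 site: tccttctaggacagacttggAGG
The crRNA2 site (chr8:104110965-104110984) lay inside the region, its middle 19.5 bp from the summit. The crRNA1 site (chr8:104110426-104110445) lay 395 bp and the crRNA3 site (chr8:104111251-104111270) 188 bp outside it.

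Pecam1 encodes an immunoglobulin-family adhesion molecule of endothelial borders. Its 3 regions lay inside the gene. The region at +35.3 kb (chr11:106715216-106715435) covers an inner protein-coding start and was called in d4 replicate 1 only, with a fold enrichment of 5.94 and a pileup of 12. The intron 1 region at +27.6 kb (chr11:106722874-106723082) had 5.98 in d4 replicate 2 and 5.34 in d2 replicate 1 and no peak in the other library of either time point. A region in the last intron (chr11:106669831-106669954) was called in d2 replicate 2 only, at 7.11. No Pecam1 region was found in both libraries of a time point. The study's Pecam1 target sites, printed with the PAM in capitals to place them against these peaks, lay 1378, 1198 and 1073 bp from the +35.3 kb region, and no peak region of any library covered them.
Pecam1 crRNA1 site (chr11:106713819-106713838, plus strand): ctgtctccaggtgttgccaaGGG
Pecam1 crRNA2 site (chr11:106713999-106714018, plus strand): gactgagccagtgtaatctgTGG
Pecam1 crRNA3 site (chr11:106714124-106714143, plus strand): gttccgaatcagctctcgagTGG

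Cldn5, the claudin of endothelial tight junctions, was called at d2 only. The region that ends 8 bp upstream of its start (chr16:18776633-18776839) had no peak in either d4 library, against fold enrichments of 5.70 and 6.60 (6.15 ± 0.64, SD, n = 2) and pileups of 14 and 15 in the d2 libraries. A second lost region at -51.9 kb (chr16:18724784-18725015) had no peak at d4, against 9.21 and 6.75 (7.98 ± 1.74, SD, n = 2) at d2. The region at -61.7 kb (chr16:18715054-18715177) was called in d2 replicate 1 alone, at 7.88. None of the Cldn5 regions was called in a d4 library.

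Esam encodes an immunoglobulin-family molecule of endothelial tight junctions. The region at +2.96 kb (chr9:37530958-37531113), 34 bp from an inner protein-coding start, had 5.16 in d4 replicate 2 and no peak in d4 replicate 1, against 5.26 and 5.58 in the d2 libraries. The pileups were 14 at d4 and 14 and 13 at d2, and the 95% intervals of these 3 pileups overlapped. They are not adjusted for depth, and the d4 library was the deeper one. The region 49 bp upstream of the outermost start (chr9:37527829-37528029) was called in d2 replicate 1 only, at 4.83.

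Among the receptor genes, Eng, which encodes the TGF-beta family co-receptor endoglin, had 2 regions in intron 2 of 14, each called in a different d4 library. The region at +15.3 kb (chr2:32661840-32661984) had a fold enrichment of 7.85 and a pileup of 14 in d4 replicate 2 only, and the region at +21.4 kb (chr2:32667934-32668067) had 5.62 and a pileup of 10 in d4 replicate 1 only. The region at the gene start (chr2:32646613-32646790) was called in d2 replicate 2 only, at 5.61 with a pileup of 9. The +15.3 kb region is shown because it holds a target site of the study. Its window (plus strand, GRCm38.p6, chr2:32661782-32661982) has 1 E-box word (CAGCTG) in capitals, and the sites have their PAM in capitals.
Eng intron 2 window: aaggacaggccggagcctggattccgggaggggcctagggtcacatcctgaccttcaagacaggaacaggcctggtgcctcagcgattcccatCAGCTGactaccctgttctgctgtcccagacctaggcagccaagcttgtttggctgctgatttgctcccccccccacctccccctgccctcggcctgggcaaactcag
Eng crRNA1 site (chr2:32661638-32661657, plus strand): tggtggcagccaagaaccccAGG
Eng crRNA2 site (chr2:32661961-32661980, plus strand): ccctcggcctgggcaaactcAGG
Eng crRNA3 site (chr2:32662376-32662395, plus strand): gttcttctctacctgaagagTGG
The crRNA2 site lay inside the region, its middle 88.5 bp from the summit, and the crRNA1 site lay 183 bp and the crRNA3 site 392 bp outside it. Of the 9 sites targeted at Cdh5, Eng and Pecam1, each of which matched the genome at 1 place, 2 lay inside a peak region. All 9 lay inside the wider elements that the paper selected at these genes for increased accessibility at d4.

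Tek, the gene of the angiopoietin receptor TIE2, had 6 regions, of which 5 were called in a single d4 library and 1 was lost. The region at its start (chr4:94739221-94739465) had a fold enrichment of 7.27 and a pileup of 15 in d4 replicate 2 only. In d4 replicate 1 alone, peaks were called at -23.9 kb (chr4:94715318-94715436, 8.24), at -15.8 kb (chr4:94723430-94723574, 4.36) and in intron 1 at +8.59 kb (chr4:94747758-94748003, 5.73). In d4 replicate 2 alone a further intron 1 region at +6.63 kb (chr4:94745839-94745995) had 5.21. All 5 were therefore d4 peaks without a counterpart in the other d4 library. The lost region lay in intron 1 at +13.4 kb (chr4:94752550-94752765), with no peak at d4, against 9.24 and 6.29 (7.77 ± 2.09, SD, n = 2) and pileups of 15 and 9 at d2. No region of another gene lay within 100 kb of the Tek start.

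Tie1 encodes the orphan receptor that partners TEK. No peak of any library lay within the gene or within 1000 bp of its start. Within 100 kb of that start, 9 regions were assigned to other genes, of which 3 were shared and 3 were lost. Whether any of them acts on Tie1 was not tested.

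Cd93, which encodes a C-type lectin-like glycoprotein of endothelial cells, was the only member with a promoter called in both d4 libraries. The region across its start (chr2:148443315-148443733) had fold enrichments of 5.44 and 7.10 (6.27 ± 1.17, SD, n = 2) and pileups of 12 and 17 in the d4 libraries, and no peak at d2. The highest of the 8 gained regions lay at -54.4 kb (chr2:148497830-148498131), with 12.1 and 8.69 (10.4 ± 2.42, SD, n = 2) at d4. Its pileups were 31 (exact 95% Poisson interval 21.1 to 44.0) and 18 (10.7 to 28.4). Between them, the region at -46.7 kb (chr2:148490219-148490366) was called in d4 replicate 1 only, at 5.23. No Cd93 region had a peak in a d2 library.

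The d4 window of the -54.4 kb region, which had the highest fold enrichment of the gained regions, is shown (plus strand, GRCm38.p6, chr2:148497874-148498074). Its capitals mark an E-box word (CAGCTG), a TEAD word (GGAATG) and an ETS word (CTGGAAG).
Cd93 upstream window: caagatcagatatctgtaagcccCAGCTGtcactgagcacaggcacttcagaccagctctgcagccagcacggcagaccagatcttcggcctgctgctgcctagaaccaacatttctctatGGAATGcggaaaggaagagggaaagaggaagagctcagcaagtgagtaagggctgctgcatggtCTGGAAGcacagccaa

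Of the sialomucin genes, Cd34 had 6 regions, with 2 gained upstream and a promoter called more strongly at d2. Upstream, the region at -10.8 kb (chr1:194927890-194928141) was gained, with fold enrichments of 7.80 and 7.67 (7.73 ± 0.095, SD, n = 2) and pileups of 18 and 16 at d4. So was the region at -99.3 kb (chr1:194839398-194839662), with 7.18 and 6.84 (7.01 ± 0.24, SD, n = 2) at d4. The promoter showed the opposite order. The region across the Cd34 start (chr1:194938773-194939292) had 5.27 and a pileup of 9 in d4 replicate 1 and no peak in d4 replicate 2, against 12.2 and 12.4 (12.3 ± 0.11, SD, n = 2) and pileups of 27 and 23 in the d2 libraries. The 95% interval of the d4 pileup, 4.12 to 17.1, lay below that of d2 replicate 1, 17.8 to 39.3, and overlapped that of d2 replicate 2, 14.6 to 34.5, although the d4 library was the deeper one.

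Both shared regions were assigned to Cd34. At -59.1 kb (chr1:194879438-194879960) the fold enrichment was 5.82 and 8.89 (7.35 ± 2.18, SD, n = 2) at d4, against 11.4 and 10.6 (11.01 ± 0.55, SD, n = 2) at d2. These values did not overlap between the time points, but the 95% intervals of the pileups did. They were 5.49 to 19.7 and 9.15 to 26.0 at d4, against 13.0 to 32.1 and 10.7 to 28.4 at d2. These intervals are not adjusted for depth, and the d4 libraries were the deeper ones. Pileup over local background was 10.3 and 17.55 at d4, against 22.6 and 22.8 at d2. The region at +37.9 kb (chr1:194976146-194977213) covers a start of the noncoding gene A330023F24Rik. Its fold enrichment was 14.6 and 13.98 (14.3 ± 0.43, SD, n = 2) at d4, against 12.5 and 13.6 (13.0 ± 0.77, SD, n = 2) at d2. The log2 ratio of the mean fold enrichments, d4 over d2, was -0.58 for the region at -59.1 kb and 0.13 for the region at +37.9 kb, with a median of -0.23 for the pair, against -0.10 over all 11189 shared regions. With the pileup over background in place of the fold, the ratios were -0.70 and 0.08, against -0.20 over all. A last region at +23.5 kb (chr1:194962296-194962412), beyond the end of Cd34, was called in d2 replicate 2 only, at 6.07.

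The d4 window of the -10.8 kb region, which had the higher lower d4 fold enrichment of the gained Cd34 regions, is shown (plus strand, GRCm38.p6, chr1:194927879-194928079). Capitals mark the ETS word CCGGAAG at left and, nearer the right end, the GATA word AGATAA.
Cd34 upstream window: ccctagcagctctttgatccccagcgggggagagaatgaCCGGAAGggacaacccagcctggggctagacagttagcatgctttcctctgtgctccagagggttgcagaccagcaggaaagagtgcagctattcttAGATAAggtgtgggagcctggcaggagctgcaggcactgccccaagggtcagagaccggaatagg

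Podxl encodes podocalyxin, an anti-adhesive sialomucin. It had 7 regions, and at this gene the peaks near the start were d2 peaks while most of those upstream were d4 peaks. In intron 1 at +3.55 kb (chr6:31560142-31560727) there was no peak at d4, against 7.22 and 8.56 (7.89 ± 0.95, SD, n = 2) and pileups of 25 and 31 at d2, the highest pileups among the 5 lost regions. The region across the start (chr6:31563660-31564079) was called in d2 replicate 2 only, at 4.41. Upstream, the region at -23.8 kb (chr6:31587631-31587962) was gained, with 10.7 and 6.09 (8.39 ± 3.24, SD, n = 2) and pileups of 24 and 15 at d4.

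Farther upstream, 4 Podxl regions lay in introns of the noncoding gene Gm43154. Gained ones lay at -66.1 kb (chr6:31629911-31630292, 5.67 and 7.73 at d4), -73.1 kb (chr6:31636884-31637283, 8.40 and 7.48) and -78.7 kb (chr6:31642575-31642823, 6.56 and 6.95). Among them, 1143 bp from the -73.1 kb region, lay a lost region at -74.6 kb (chr6:31638427-31638679), with no peak at d4 against 6.07 and 5.38 (5.73 ± 0.48, SD, n = 2) at d2. A region called only at d4 and a region called only at d2 thus lay side by side. Because these 4 regions lie nearer to the Gm43154 start than to that of Podxl, their assignment to Podxl rests on the use of protein-coding starts.

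Windows of 2 gained Podxl regions are shown, and because they were chosen in different ways they do not measure how far gained regions differ. The gained windows not shown held 1 TEAD and 1 E-box word at -66.1 kb and 1 E-box word at -78.7 kb. The -73.1 kb region, chosen for the highest lower d4 fold enrichment at the gene (plus strand, GRCm38.p6, chr6:31636923-31637123), had no word of the 8 motifs. The -23.8 kb region (chr6:31587675-31587875), added after its values were seen, had 6, marked in capitals. They are 3 GATA words, 2 ETS words, of which the left one is on the minus strand, and 1 E-box word.
Podxl -73.1 kb window: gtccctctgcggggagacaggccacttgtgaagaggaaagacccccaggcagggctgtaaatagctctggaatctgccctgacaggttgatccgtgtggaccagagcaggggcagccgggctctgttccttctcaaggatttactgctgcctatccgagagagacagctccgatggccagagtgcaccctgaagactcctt
Podxl -23.8 kb window: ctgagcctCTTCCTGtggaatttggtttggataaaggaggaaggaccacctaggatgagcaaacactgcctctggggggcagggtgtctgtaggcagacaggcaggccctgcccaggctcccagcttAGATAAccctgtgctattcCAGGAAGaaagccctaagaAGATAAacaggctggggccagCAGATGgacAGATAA

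**Figure D3:**
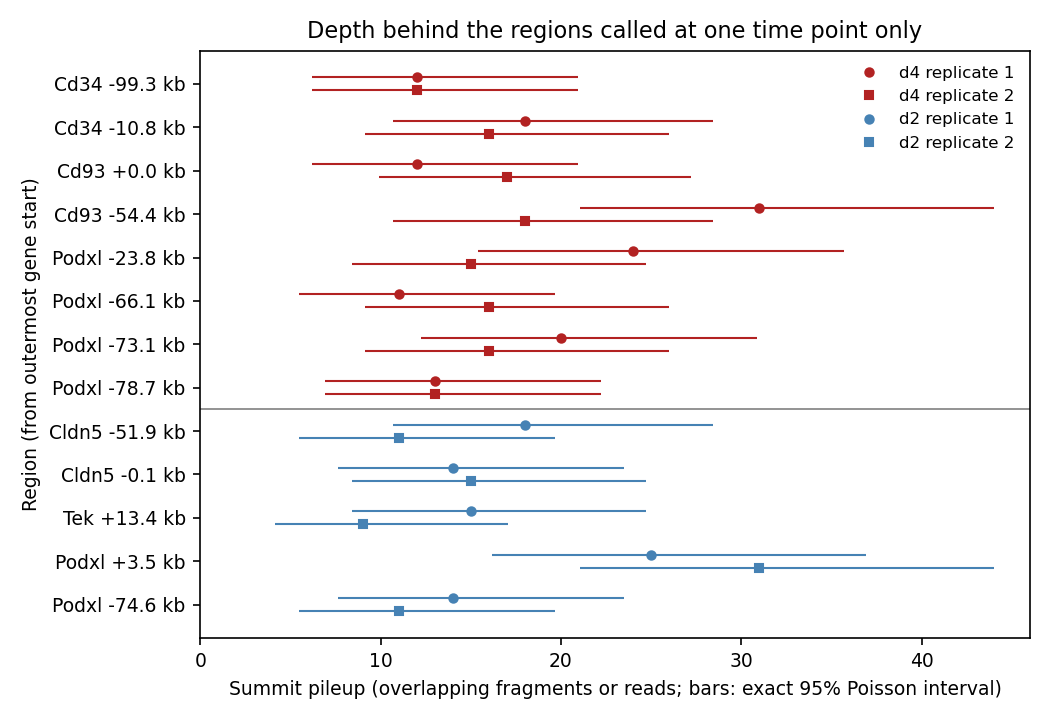
Summit pileup (x axis, overlapping fragments or reads) with exact 95% Poisson intervals for counting error in the d4 libraries at the 8 gained regions (red, above the line) and in the d2 libraries at the 5 lost regions (blue, below it), named by gene and distance from the outermost gene start. Pileups run from 11 to 31 at the gained and from 9 to 31 at the lost regions, and intervals of replicates overlap at each region.

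The depth behind these calls was low. Pileups ran from 11 to 31 at the gained and from 9 to 31 at the lost regions, and from 8 to 16 at the 10 regions called in a single d4 library. The median fold enrichment was 5.84 at those 10 regions, and the median of the lower d4 value was 6.70 at the 8 gained regions, close to the medians over all regions of the same kinds (6.03 and 6.81). The 100 kb limit also bears on the list. The gained Cd34 region just inside it lay 99.2 kb from the start, measured to its near edge. Just outside it, a Podxl region at 100.6 kb was called in d2 replicate 1 only (4.36), a Cdh5 region at 103.2 kb in d4 replicate 2 only (7.81), and a Cd93 region at 106.2 kb was gained (9.22 and 9.06 at d4).

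The 8 motifs were searched as short words on both strands within 100 bp of each summit, at distal regions, more than 1000 bp from any transcript start. No 2 words overlapped in the member windows. GATA words (AGATAA or TGATAA), which GATA factors bind, were present in 2 of the 7 gained distal member regions, at Cd34 and Podxl, against 52.2% of all 2518 gained distal regions and 21.6% of all 17213 distal regions. ETS words (CNGGAAG), the core bound by factors such as ERG and FLI1, were present in 3 of 7, at Cd34, Cd93 and Podxl, against 29.1% of gained and 24.7% of all distal regions. ETS words were also present in 2 of the 4 lost distal member regions, against 23.3% of all 2915 lost distal regions. When the search kept to 50 bp on each side they were in 0 of 7 gained ones, against 16.6% of all gained distal regions at that width. E-box words (CAGCTG or CAGATG) were present in 5 of 7, against 38.2% and 33.7%, with 3 of 7 within 50 bp of the summit, against 21.9% of gained distal regions at that width, and TEAD words (GGAATG) in 2 of 7, against 24.1% and 15.4%. AP-1 (TGANTCA), forkhead (TGTTTAC), SOX (CCATTGT) and RBPJ (GTGGGAA) words were in 0 of 7, against 11.8%, 7.59%, 2.899% and 5.88% of gained and 8.29%, 4.09%, 3.37% and 5.26% of all distal regions. Of the 7 distal member regions called in a single d4 library, 3 held a GATA word, at Tek (2) and Cd93. The shares were 52.2% of gained and 21.6% of all distal regions. No share over all distal regions called in a single d4 library stands beside this count. A word is not a bound site, and with 7 regions these shares are descriptions only.

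Other endothelial junction and surface genes, a list of 42, had 99 regions at 34 genes. Of these regions 20 (20.2%) were gained, 14 (14.1%) lost and 17 (17.2%) shared, against 8.48%, 13.2% and 31.9% of all assigned regions. Counted by gene, 9 of the 34 had gained but no lost regions, 4 had lost but no gained ones, 6 had some of each and 15 had none (26.5%, 11.8%, 17.6% and 44.1%). Over all 15050 genes with a region these shares were 10.3%, 19.7%, 4.94% and 65.1%. Ptprb, the gene of the VE-PTP phosphatase that acts on VE-cadherin and TEK, had 3 gained and 0 lost regions of 5, and Angpt1, the TEK ligand gene, had 2 gained of 5. Tspan18 had 2 gained and 3 lost of 10, and Gja1, the gap junction gene of a connexin, had 2 gained and 2 lost of 8.

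Genes of other cell types that the cultures could hold also had gained and lost regions, and their part in the values above was not tested. Over all assigned regions 8.48% were gained and 13.2% lost, and each list below had a higher share of both. Of 59 regions of 19 epithelial junction genes, 10 (16.9%) were gained and 14 (23.7%) lost, with 3 gained at the plakophilin gene Pkp2, 2 gained and 1 lost at Cdh3, 2 lost at Cldn4, and 1 gained and 2 lost at Dsp, the desmoplakin gene. Of 66 regions of 18 pluripotency genes, 8 (12.1%) were gained and 14 (21.2%) lost. Klf4 and Lin28a had 1 gained and 2 lost each, Sall4 had 2 lost, and Tbx3 had 2 gained and 1 lost. Of 39 regions of 15 haematopoietic genes, 6 (15.4%) were gained and 6 (15.4%) lost, with 3 gained at the hyaluronan receptor gene Cd44, 2 gained and 2 lost at Runx1, and 2 lost at Myb. Of these 15 genes, 11 had a region, and Gata1, Gfi1b, Hba-a1 and Hbb-bh1 had none.

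**Figure D4:**
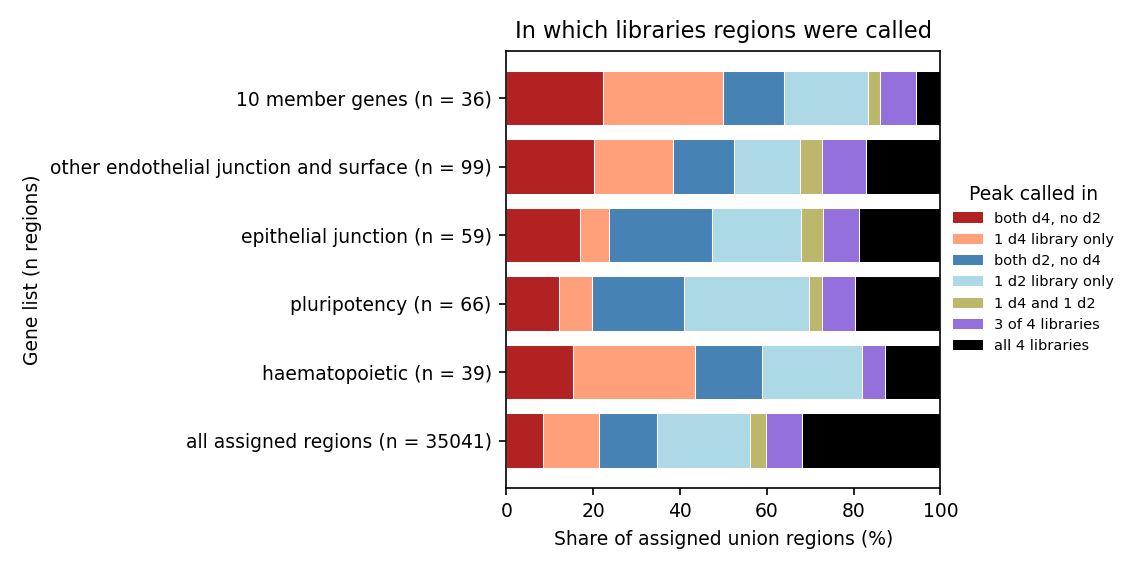
Share of assigned union regions (x axis, %) by the libraries in which a peak was called (colours), for the 10 member genes, 4 comparison lists and all assigned regions (rows, with the number of regions). Gained regions make up 22.2% of the member regions and 20.2% for other endothelial genes. For epithelial junction, haematopoietic and pluripotency genes they make up 16.9%, 15.4% and 12.1%, against 8.48% of all. Shared regions make up, in the same order, 5.56%, 17.2%, 18.6%, 12.8%, 19.7% and 31.9%.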

How the data were processed

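ATAC-seq peak lists of 2 d4 and 2 d2 libraries were analysed, with groups and replicate numbers taken from the labels. The submitters' processing notes name FastQC for read quality, cutadapt for trimming, Bowtie2 for alignment to mm10 and MACS2 for peak calling, which the authors ran on each library alone. The deposited fold enrichment is the ratio of summit pileup to local background, each with 1 added, and the deposited −log10 p and −log10 q values come from the authors' Poisson test. The lowest −log10 q was just above 3. The deposited score column restates q and was not used. Whether pileups count fragments or extended reads is not clear from the methods, which name both.

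Pileup and background were solved from the deposited fold and −log10 p with Python 3.11.15, NumPy 2.4.6 and SciPy 1.17.1, and came out whole for 100% of peaks (to within 0.01 in −log10 p). The solver was tested on simulated data. Background gives relative depth only. Intervals are exact Poisson at 95% and cover counting error only. Peaks that shared 1 bp or more were joined into union regions, each described by the strongest peak of each library and assigned with GENCODE release M 21. Sequences were read from the GRCm38.p6 genome, and target sites by exact match of the study's crRNA guides of 20 bases. Figures were drawn with matplotlib 3.10.9.

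The member genes, lists and motifs were chosen with earlier results of these data known. All members are named. Of each comparison list up to 4 genes are named, those with the most gained and most lost regions (at least 2), ties in alphabetical order. Windows are shown for the gained distal region of each gene with the highest lower d4 fold, outside UTRs, and for regions that hold a target site. No test was made between time points. Alternatives were a −log10 q minimum of 5 or 10, only the top 15000 peaks per library, merging within 500 bp, 50% cover, any gene type, limits of 50 kb or none, other motif windows, pileup over background, and leaving out each library. A result near 1 member gene is not reported here.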

Additional observations from a re-analysis of the deposited data

How the results depend on the processing

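The count of 8 gained regions was 3 at −log10 q of at least 10, 3 with the top 15000 peaks of each library, 3 within 50 kb and 2 with transcript starts of any gene type, and lay between 8 and 15 when a library was left out (11 without d4 replicate 1 and 15 without d4 replicate 2). Lost regions numbered 3 of 15 at −log10 q of at least 10 (20%, against 11.6% of all). With the top 15000 peaks it was 2 of 17 (11.8%, against 9.26%). Within 50 kb 3 of 25 were lost (12%, against 12.9%), and with any gene type 3 of 20 (15%, against 13.7%). The lost count of 5 was 6 to 9 when a library was left out. It was 7 of 29 without d4 replicate 1 (24.1%, against 17.4%) and 6 of 33 without d4 replicate 2 (18.2%, against 16.8%). The count of 2 shared regions was 1, 1, 1 and 0 under these 4 settings and 1 with 50% of the union region covered. It was 2 to 4 when a library was left out. No share over all regions stands beside these shared counts. The median log2 ratio of -0.23 at shared regions rests on 2 regions. It was 0.13 at −log10 q of at least 10, with the top 15000 peaks, within 50 kb and with no distance limit, -0.58 with 50% cover, and -0.65 to -0.072 when a library was left out. With any gene type no shared region was left to give a ratio. Gained distal regions with a GATA word numbered 2 of 7, and 4 of 7 when the whole region was searched. Whole regions were longer than the search window and no share over all regions stands beside the 4, so nothing is read from the rise. Within 50 bp of the summit, ETS words fell to 0 and E-box words to 3 of 7 regions. Merging peaks within 500 bp left the gained, lost and shared counts at 8, 5 and 2. They were 8, 6 and 2 at a −log10 q minimum of 5, and 9, 7 and 3 with no distance limit.

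No paired analysis was possible because the counts come from no test, and a replicate block needs one. Peaks at these genes rest on pileups of 8 to 44, so a peak missed in 1 library limits every count, and the lists hold no signal below the threshold. Leaving out a library of a time point raises that time point's count by construction, as 1 peak then suffices.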

Other observations

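Of the 8 gained regions, 6 lay nearer to the start of a gene that is not protein-coding than to the member gene they were assigned to, among them the -99.3 kb region of Cd34 and the -54.4 kb region of Cd93. The exceptions were the -10.8 kb region of Cd34 and the Cd93 promoter. All 4 gained regions of Podxl were among the 6. No share over all gained regions stands beside this count, so it describes these regions only.

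Beyond the 100 kb limit, the nearest shared region assigned to Cdh5 lay 227.5 kb away, with fold enrichments of 13.0 and 13.0 in the d4 libraries against 9.02 and 8.08 in the d2 libraries. It is given as a value only, and no other protein-coding start lay nearer.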
